A study of Caenorhabditis elegans with 2 samples.

Results

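The genes described here encode molecular chaperones of Caenorhabditis elegans, in 3 groups. F44E5.4 and F44E5.5 are a neighbouring pair of heat-inducible HSP70 genes. The constitutive genes are hsp-1, the main cytosolic HSP70, hsp-90, the cytosolic HSP90, and dnj-13, a J protein of the DNAJB type. The subunit genes cct-1, cct-2, cct-4, cct-5 and cct-8 belong to the chaperonin CCT. These 10 genes, of 19973 protein-coding genes on the nuclear chromosomes, were each given the peak regions whose summit lay inside the gene or up to 1000 bp upstream of its 5′ end. The genes were picked with the peak lists in view, so their signals, ranks and counts are a description and were not tested.

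The regions come from chromatin immunoprecipitation followed by sequencing (ChIP-seq) of the protein of F10E7.11 in whole worms. All material was strain OP658, genotype unc-119(tm4063) III; wgIs658, a stable transgenic line in which F10E7.11 carries GFP and FLAG at its C terminus; the precipitation used an antibody against GFP, so it reads the tagged protein from the transgene only. The worms were young adults of mixed sex, 63 hours past synchronisation as starved L1 larvae, and chromatin was sheared by sonication. There was 1 group with 2 biological replicates, no heat-shocked group and no second genotype, and binding in different tissues of the whole animal cannot be told apart.

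Chaperones of the HSP70 class bind unfolded stretches of other proteins, J proteins bring them their substrates and start their ATP cycle, HSP90 acts late in the folding of signalling proteins, and CCT is a barrel of related subunits that folds actin and tubulin. Inducible chaperone genes are switched on by heat shock factor, HSF-1 in the worm, which binds arrays of the units GAA and TTC in alternating orientation, spaced by 2 bases. Such arrays are called heat shock elements. The constitutive genes supply the same functions in unstressed cells.

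The sequences at the summits are shown first because the letters of these arrays differ between the genes. They are the + strand of WBcel235 (ce11), read from the RefSeq genome, and capitals mark every match to GAANNTTC or TTCNNGAA, the 2-unit forms of the element. The whole region is shown for F44E5.4 and F44E5.5, the stretch from the upstream array through the summit for dnj-13, and the 100 bases around the summit for the others.
F44E5.4 and F44E5.5, chrII:11759342-11759583: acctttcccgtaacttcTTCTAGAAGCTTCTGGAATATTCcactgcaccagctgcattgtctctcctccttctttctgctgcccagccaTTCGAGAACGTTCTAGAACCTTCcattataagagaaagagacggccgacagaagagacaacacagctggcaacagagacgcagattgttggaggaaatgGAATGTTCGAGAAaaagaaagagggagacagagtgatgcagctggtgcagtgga
dnj-13, chrII:11545276-11545533: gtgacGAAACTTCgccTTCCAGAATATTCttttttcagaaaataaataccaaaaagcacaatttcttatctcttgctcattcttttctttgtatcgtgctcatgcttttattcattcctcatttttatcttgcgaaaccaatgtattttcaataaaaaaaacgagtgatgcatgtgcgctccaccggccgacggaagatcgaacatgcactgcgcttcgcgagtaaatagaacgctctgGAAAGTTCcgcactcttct
cct-8, chrIV:1094317-1094416: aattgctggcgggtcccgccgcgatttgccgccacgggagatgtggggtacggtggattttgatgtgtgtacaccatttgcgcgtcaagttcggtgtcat
hsp-1, chrIV:17278555-17278654: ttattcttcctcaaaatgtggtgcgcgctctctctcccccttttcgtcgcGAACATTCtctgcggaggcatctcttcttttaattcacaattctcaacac
hsp-90, chrV:14685746-14685845: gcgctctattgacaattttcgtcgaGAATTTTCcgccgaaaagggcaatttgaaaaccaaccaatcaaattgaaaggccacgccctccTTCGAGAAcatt
The F44E5.4 and F44E5.5 region holds 3 stretches of capitals, dnj-13 also holds an array away from its summit, hsp-1 and hsp-90 have single pairs, and the 100 bases of cct-8 have none.

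Regions of the list that passed the authors' irreproducible discovery rate (IDR) procedure, a measure of agreement between replicates, were assigned to 6 of the 10 genes: F44E5.4, F44E5.5, hsp-1, hsp-90, dnj-13 and cct-8. The same assignment gave an IDR region to 2.4% of all protein-coding genes. Because F44E5.4 and F44E5.5 share a region, the 6 genes rest on 5 regions. The longer list of pooled candidate regions, which includes background, gave a region to 9 of the 10, all but cct-4, against 45.9% of all genes. With a q-value under 0.05 the count was 7 of 10, cct-5 being added to the 6, against 4.15%. When each replicate's own list was reduced to its 575 strongest regions, the same 6 genes had a region in replicate 1, where all genes gave 2.45%, and in replicate 2, where they gave 2.51%. With every candidate counted, all 10 genes had a region in each replicate, against 45.8% of all genes in replicate 1 and 57.1% in replicate 2. Since the genes were chosen for such regions, nothing is read from the distance to these shares. The IDR list is the 575 pooled regions of highest signal, down to a signal of 155.0; of the 10 genes, hsp-90 was the lowest inside it at 203.2 and cct-5 the highest outside it at 138.8.

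The inducible pair had the strongest region of the 10 genes in the pooled list and in replicate 1. F44E5.4 and F44E5.5 point away from each other with 350 bp between them, and the region at chrII:11759342-11759583 lies wholly in that gap, 242 bp wide. Its summit was 165 bp upstream of F44E5.4 and 186 bp upstream of F44E5.5, so it cannot be given to either gene alone. The signal was 377.6 in the pooled list (rank 20 of 18286), 300.4 in replicate 1 (rank 17 of 18116) and 85.79 in replicate 2 (rank 62 of 25275). Signal values are the authors' peak caller's and are on another scale in each list. They are therefore compared within a list, or after division by the median over the IDR regions in the same list, which was 185.9 pooled, 138.7 in replicate 1 and 56.02 in replicate 2. On that relative scale the region stood at 2.17 in replicate 1 and 1.53 in replicate 2, a mean of 1.85 ± 0.449 (SD, n = 2). Its summits in the replicates were 32 bp apart, and the region was 242 bp wide in replicate 1 and 111 bp in replicate 2.

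Among the constitutive genes, dnj-13 stood nearest to the inducible pair. Its region at chrII:11545266-11545701 had a signal of 320.3 pooled (rank 36), 233.9 in replicate 1 (rank 37) and 98.53 in replicate 2 (rank 38). Both replicates thus placed it almost equally high, with a relative signal of 1.72 ± 0.0514 (SD, n = 2). The summit was 217 bp upstream of dnj-13, inside a noncoding RNA exon annotated on both strands under the name F54D5.22, and in an intron of a long transcript of dhgd-1, a D-2-hydroxyglutarate dehydrogenase gene. It also lay 656 bp upstream of F54D5.9, which points the other way.

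The region of hsp-1, at chrIV:17278387-17278822, had a signal of 240.5 pooled (rank 112), 188.3 in replicate 1 (rank 86) and 52.02 in replicate 2 (rank 506, q = 0.0109). It ranked far lower in replicate 2 than in replicate 1. The relative signal was 1.36 in replicate 1 and 0.929 in replicate 2, a mean of 1.14 ± 0.303 (SD, n = 2). In replicate 2 the pooled summit fell inside a pair of overlapping candidate regions, and the stronger one peaked 159 bp away from the replicate 1 summit, the widest gap of the 5 regions. The other reached a signal of 40.13 with a q-value of 0.138. The pooled summit was 354 bp upstream of hsp-1 and no other protein-coding gene shared it; the noncoding gene F26D10.23 ended 103 bp away and the nearest other protein-coding gene, clec-196 (a C-type lectin), 857 bp away. Weaker pooled candidates inside hsp-1 had signals of 90.71 and 87.75, with q-values of 0.459 and 0.515.

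For hsp-90 the region at chrV:14685578-14686013 had a signal of 203.2 pooled (rank 206), 151.3 in replicate 1 (rank 197) and 51.29 in replicate 2 (rank 537, q = 0.0140). This was the weakest of the 5 regions in every list, with a relative signal of 1.00 ± 0.124 (SD, n = 2), the level of the median IDR region. The summit lay 878 bp inside the gene as annotated, in an intron of its longer transcript, and 364 bp upstream of the 5′ end of the shorter transcript. The 5′ end nearest to it was that of the divergent gene C47E8.4, at 311 bp. A candidate region upstream of the longer transcript had a pooled signal of 71.81 and a q-value of 0.785.

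**Figure D1:**
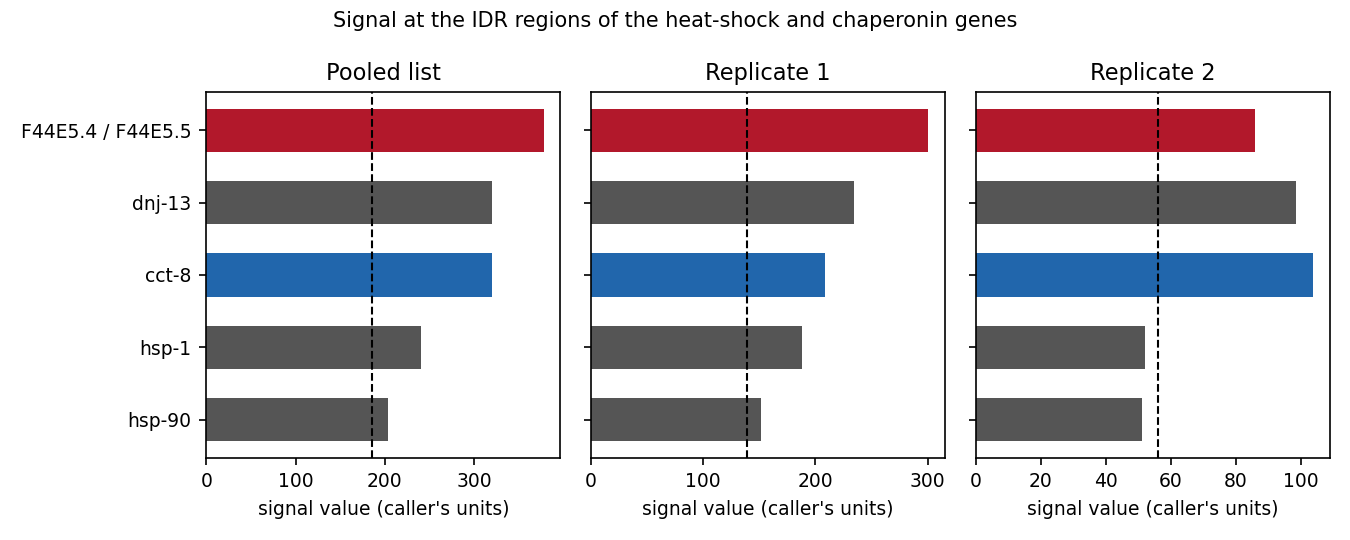
Signal values of the 5 IDR regions (x axis, the caller's units) in the pooled list, replicate 1 and replicate 2; each bar is 1 region, red for the inducible pair, grey for constitutive genes and blue for cct-8, and the dashed line is the median over all IDR regions in that list. The F44E5.4 and F44E5.5 bar is the longest in the pooled list and replicate 1, while cct-8 and dnj-13 pass it in replicate 2, where hsp-1 and hsp-90 fall below the line.

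Set against the regions of hsp-90, dnj-13, hsp-1 and cct-8, the region of the inducible pair was 1.35 times their median signal in the pooled list, 1.51 times in replicate 1 and 1.14 times in replicate 2. It was above the highest of them by 1.18 times in the pooled list and 1.28 times in replicate 1. In replicate 2 it was 0.827 of the highest and took place 3 of 5, behind cct-8 and dnj-13. By the mean relative signal the order was F44E5.4 with F44E5.5 first, then dnj-13, then cct-8 (1.68 ± 0.247), then hsp-1 and last hsp-90. The first 3 of these did not differ beyond the spread between replicates, and neither did hsp-1 and hsp-90. The higher and the lower set did not overlap in either replicate. Both sets were formed from these same replicate values, so nothing is read from that separation. The signals nearest to each other across the sets were 208.5 (cct-8) and 188.3 (hsp-1) in replicate 1. In replicate 2 they were 85.79 (the inducible pair) and 52.02 (hsp-1). All 5 regions had the same pooled q-value of 0.00183, so q gives no order among them. When the strongest region of each of the other genes was used, including the weak candidates of the remaining cct genes, the ratio to their median was 1.86 in the pooled list, 2.37 in replicate 1 and 1.79 in replicate 2.

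IDR regions outside the 10 genes were ordered by closeness to that of the inducible pair in the ranks of both replicates, on the log2 scale. Only regions with an assigned protein-coding gene were considered, which left out 150 of the 575. The closest were those of ppfr-1, dhc-4 and the pair hsp-60 and Y22D7AL.10. The gene ppfr-1, a regulatory subunit of protein phosphatase 4, ranked 20 in replicate 1 and 54 in replicate 2. The dynein heavy chain gene dhc-4 ranked 24 and 85. The shared region of hsp-60 and Y22D7AL.10 ranked 28 and 48.

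Of the 5 regions, 4 were assigned to more than 1 protein-coding gene, the exception being hsp-1; over the whole IDR list this held for 78 of 575 regions, or 18.35% of the 425 with any assigned gene. When each summit was given only to the gene with the nearest 5′ end, 3 of the 10 genes kept their region: F44E5.4, dnj-13 and hsp-1. The regions of cct-8 and hsp-90 then went to Y55F3AR.2 and C47E8.4, and F44E5.5 lost the shared one to F44E5.4.

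**Figure D2:**
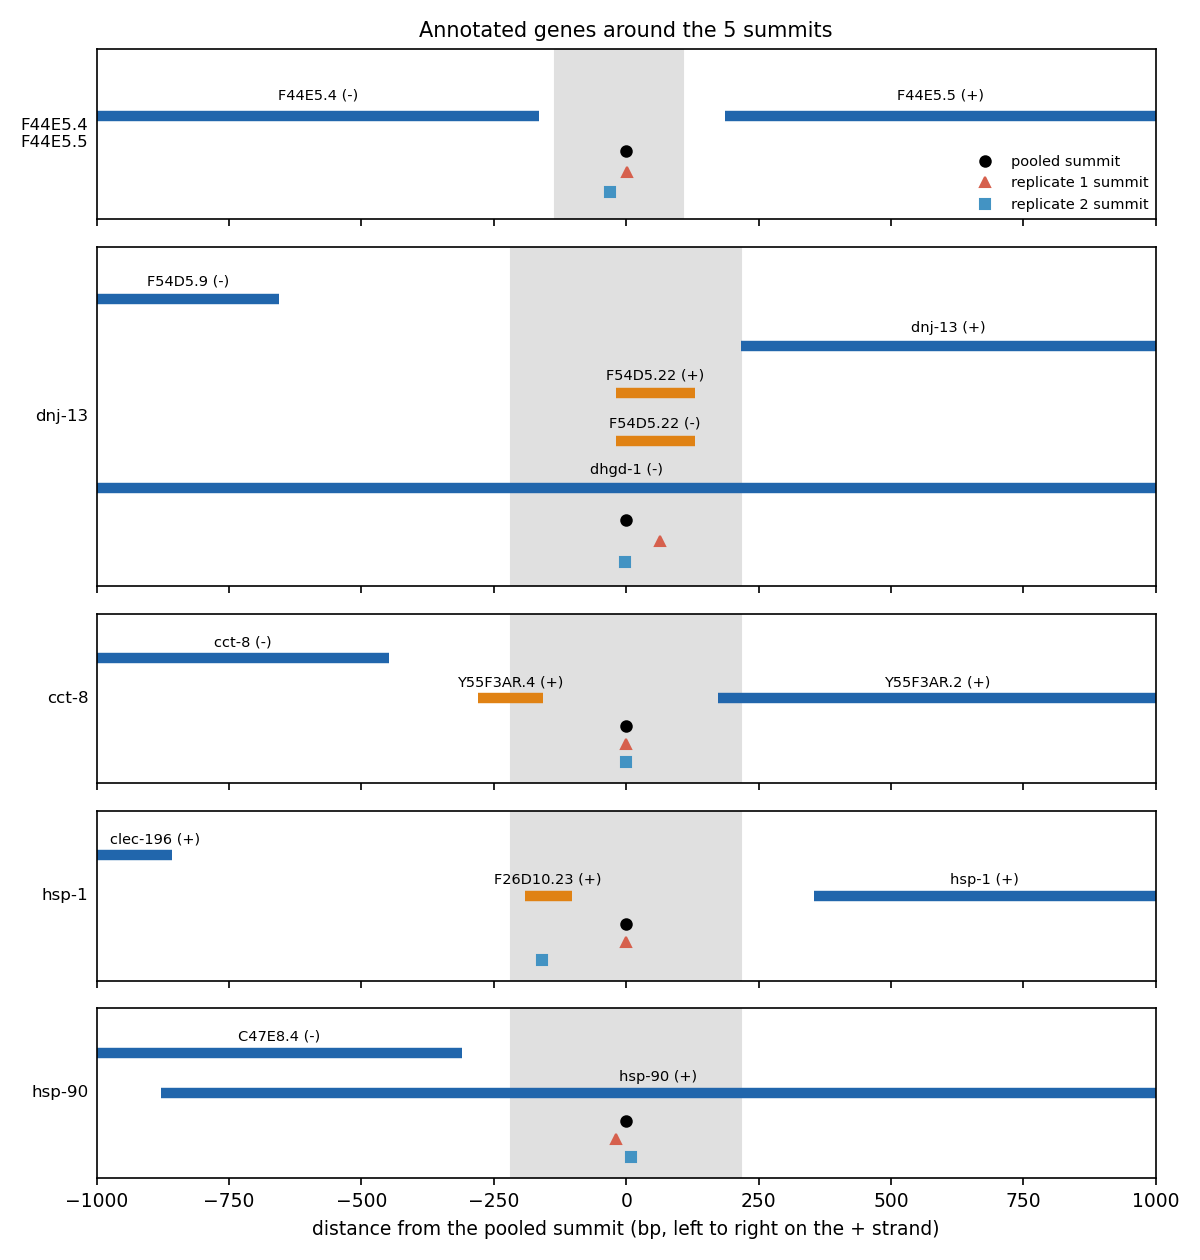
Annotated genes within 1000 bp of the 5 pooled summits (x axis, distance in bp on the + strand; blue protein-coding, orange noncoding, strand in brackets), with the pooled region in grey and the summits of the pooled list and each replicate as symbols. The replicate summits lie 1 bp apart at cct-8 and 159 bp apart at hsp-1, and at cct-8 and hsp-90 another gene's 5′ end is nearer to the summit.

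The DNA of the inducible pair is duplicated almost perfectly. The genes are inverted copies: F44E5.4 and F44E5.5 matched at 2193 of 2195 aligned bases (99.909%), whereas F44E5.4 matched the inducible hsp-70 at 80.75% over the longest aligned stretch of 1013 bases and hsp-1 at 72.3% over 665. Of all words of 36 bases inside F44E5.4, 1.84% occurred once in the genome, and inside F44E5.5 2.08%. In the region between them 96.6% of such words (200 of 207) occurred once, and 100% did in the other 4 regions. Counted in bp from the midpoint between the genes, the region ran from -144 to 97, and the long runs of words found in a pair of copies began at -148 and 140 and went outward. The inverted copies themselves, aligned with their few differing bases (99.573% identity over 2341 bases), reached further in, to -68 on the left and 59 on the right. Of the 242 bp of the region, 116 bp (47.9%) lay inside them, so a word that occurs once there can have a near-identical partner in the other copy. Unlike hsp-1, hsp-90, dnj-13 and cct-8, neither gene had a candidate region inside its transcribed length. The sources used here give neither the read length nor the handling of reads with several placements, and the part of duplication in the width and place of this region was not tested.

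**Figure D3:**
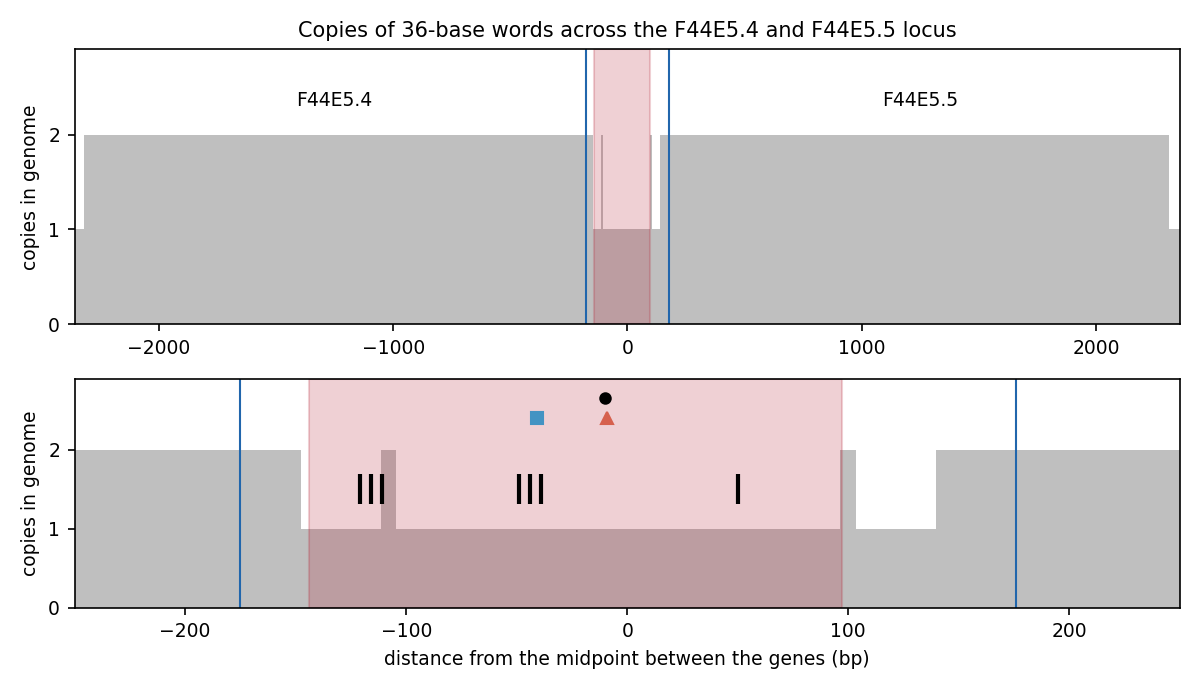
Number of times each 36-base word occurs in the genome (y axis) at the position of its centre relative to the midpoint between F44E5.4 and F44E5.5 (x axis, bp), over both genes above and the gap below. Red is the pooled region, blue lines are the 5′ ends, and circle, triangle and square the pooled, replicate 1 and replicate 2 summits. Black ticks are the 3-unit heat shock elements inside the region, and those in the gap outside it are not drawn. The region lies between the long runs of words found in a pair of copies and includes a short run of such words at -111 to -105.

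Heat shock elements were counted by their letters, on both strands, as pairs (GAANNTTC or TTCNNGAA) and as the 3-unit form, GAANNTTC followed at once by NNGAA, which contains pairs. Within 100 bp centred on the summit a pair was found at 4 of the 5 regions (80.0%), not at cct-8; this was so for 8.70% of the 575 IDR summits and 11.0% of all pooled candidates. In 200 bp it was 5 of 5, against 19.5% and 21.3%. The 3-unit form lay within the 100 bp at 1 of the 5, that of the inducible pair, and at 1.39% of IDR summits and 0.536% of pooled candidates.

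The region of F44E5.4 and F44E5.5 held 7 overlapping matches to the 3-unit form in 3 clusters, centred 101 to 111 bp left, 29 to 39 bp left and 60 bp right of the summit. The summit of replicate 2 fell within the middle cluster and that of replicate 1 between the middle and the right one. Further 3-unit matches lay outside the region, between its right end and F44E5.5. At dnj-13 the one 3-unit match was 186 bp from the summit, with a single pair at 35 bp. At hsp-1 a single pair lay 4 bp from the summit, and at hsp-90 single pairs lay 21 bp and 42 bp from it. At cct-8 the nearest pair was 65 bp away.

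The elements nearest to the genes were in part elsewhere than the summits. The promoter, taken as 250 bases before to 50 after the 5′ end, held the 3-unit form for 4 of the 10 genes, against 1.97% of all 19973 promoters; these were F44E5.4, F44E5.5, hsp-1 and hsp-90. The windows of F44E5.4 and F44E5.5 overlap in the gap between the genes, so some matches were counted for both. Of the 7 matches in the F44E5.5 promoter, the one nearest to the gene was 64 bp from its 5′ end. It lay 122 bp from the summit, outside the region. The match in the hsp-1 promoter was 216 bp from the summit. Those in the hsp-90 promoter, at the longer transcript's start, were 887 to 957 bp from it. None of the 5 cct genes had the 3-unit form in this window. In the 100 bp centred on each summit, other words were found at fewer of the 5 summits than the pairs. ACGCAG, a word chosen from the IDR regions of these data, was in that window at 1 of the 5 (the inducible pair) and at 11.3% of IDR summits. GAGAGA was in it at 1 of 5 (hsp-1) and 13.7%, and TATAAA at 0 of 5 and 6.26%. In 200 bp GAGAGA was at 3 of 5 (the inducible pair, dnj-13 and hsp-1) and 26.6%, while ACGCAG was again at 1 of 5 and TATAAA at 0 of 5. The G+C content of these 100 bp ranged from 44% at hsp-90 to 57% at cct-8, beside a median of 47% over IDR summits. A match gives the letters in these windows only; HSF-1 was not measured.

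The CCT subunit genes differed widely among themselves although their products form 1 complex. Of the 8 subunit genes, cct-8 alone had an IDR region. It lay at chrIV:1094149-1094584, with a signal of 319.8 pooled (rank 37), 208.5 in replicate 1 (rank 62) and 103.7 in replicate 2 (rank 28), and its replicate summits were 1 bp apart. It ranked high in both replicates and was the strongest of the 5 regions in replicate 2. The summit was 447 bp upstream of cct-8 but 174 bp upstream of the divergent Y55F3AR.2, with the noncoding gene Y55F3AR.4 158 bp away, so cct-8 is not the nearest gene.

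The next subunit, cct-5, had a strongest pooled signal of 138.8 (rank 855, q = 0.0310), 8855 bp into the gene at its 3′ end, in a region shared with atf-7, a bZIP transcription factor gene, and C07G2.5. Its strongest regions in the replicates lay elsewhere in the gene, with a signal of 102.4 at 5409 bp in replicate 1 (rank 825, q = 0.0249) and 44.53 at 6447 bp in replicate 2 (rank 1029, q = 0.0579). The 3′ end region was also a candidate in replicate 1, with a signal of 99.24 (rank 921, q = 0.0331). In replicate 2 its signal was 34.6 (rank 3215, q = 0.297). The gene spans 8927 bp and held 11 pooled candidates with its upstream window, and among the subunit genes it is shorter than cct-3 alone. Its upstream candidate had a pooled signal of 77.77 and a q-value of 0.682.

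The other subunit genes had pooled signals close to or under the median over all genes, with q-values above 0.5. The strongest pooled signal was 84.87 for cct-7 (q = 0.559), 76.13 for cct-1 (q = 0.711), 74.59 for cct-3 (q = 0.735), 62.91 for cct-6 (q = 0.899) and 62.02 for cct-2 (q = 0.908), beside a median of 78.27 over the 9163 genes with a pooled candidate. No pooled region was assigned to cct-4, whose candidates had signals of 41.66 in replicate 1 (rank 18008) and 18.55 in replicate 2 (rank 23262), near the bottom of both lists. In replicate 1 the signals were 57.23 for cct-1, 47.10 for cct-2, 58.94 for cct-3 and 55.77 for cct-7, with no region for cct-6. In replicate 2 they were 39.60 for cct-1, 24.78 for cct-2, 26.31 for cct-3, 36.96 for cct-6 and 32.38 for cct-7. The order cct-8, then cct-5, held in all 3 lists, while the order of cct-1, cct-2, cct-3, cct-6 and cct-7 changed between the replicates.

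**Figure D4:**
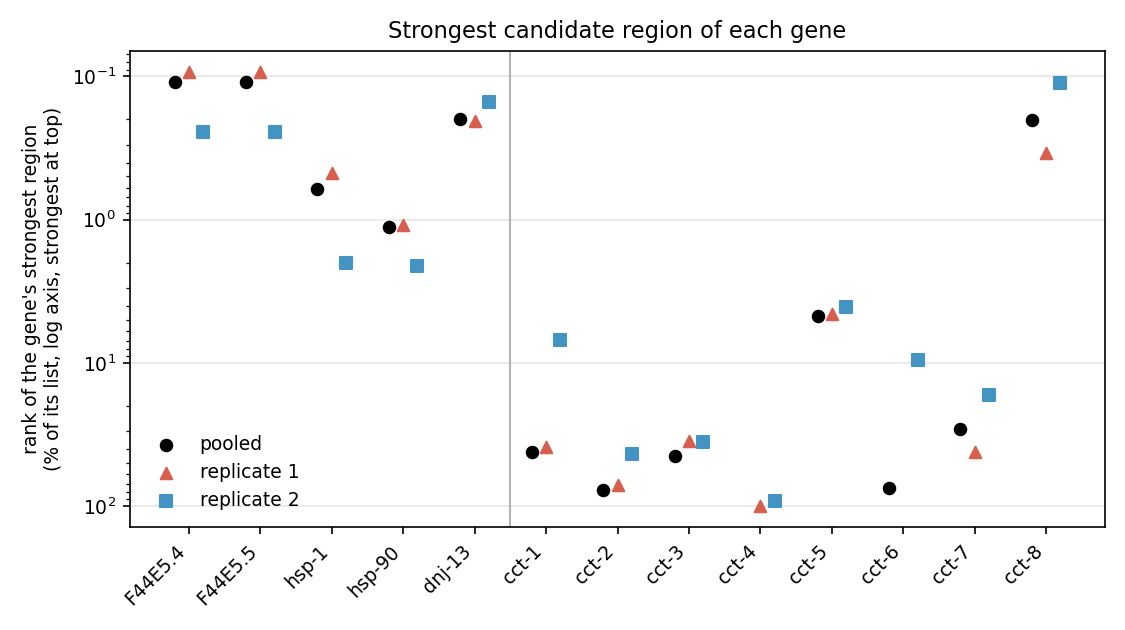
Rank of each gene's strongest candidate region as a percent of its list (y axis, log scale, strongest at the top) for the pooled list, replicate 1 and replicate 2, with the HSP genes and dnj-13 left of the line and all 8 CCT subunit genes right of it. The subunit cct-8 sits with the HSP genes, cct-5 near 5%, and the other subunits lower in every list in which they have a region; a missing symbol means that no region was assigned.

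Other chaperone genes were taken from 9 lists by role, written with earlier results of these data known. In these lists 82 of 85 symbols matched the annotation. An IDR region was assigned to 5 of the 72 genes outside the 10 (6.94%), against 2.4% of all protein-coding genes, and nothing is read from that difference. The 5 were hsp-60 and Y22D7AL.10, which share a region, bag-1, dnj-20 and dnj-29. The region at chrIII:1618932-1619367 was the strongest of them, with a pooled signal of 339.5 (rank 27), between those of the inducible pair and dnj-13. It lay 592 bp upstream of hsp-60, the mitochondrial chaperonin, and 221 bp upstream of the divergent Y22D7AL.10, which RefSeq names a mitochondrial 10 kDa heat shock protein, the partner of that chaperonin. It held 1 match to the 3-unit element. The signal at bag-1, a nucleotide exchange factor of HSP70, was 211.9 (rank 173), 182 bp upstream of the gene. Those at the J protein genes dnj-20 (199.4, rank 223) and dnj-29 (170.1, rank 411) lay far inside the genes, 6553 bp and 8458 bp from the 5′ end.

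In 7 of the 9 role lists most genes had no IDR region; the exceptions were the cytosolic inducible HSP70 genes, with 2 of 3, both of them the pair described above, and the mitochondrial chaperonin, with 2 of 2. Of the 29 J protein genes matched, 3 had an IDR region. For the third cytosolic inducible HSP70 gene, hsp-70, 100% of 36-base words occur once in the genome. It had a pooled signal of 64.62 and no IDR region. None of the 12 small heat shock protein genes matched and none of the 6 prefoldin genes had one, and their strongest pooled signals were 110.3 and 108.9. No pooled region was assigned to the heat-inducible hsp-16.1, hsp-16.2, hsp-16.41 or hsp-16.48, while 45.9% of all protein-coding genes had one. In the genes hsp-16.1 and hsp-16.48 0% of 36-base words occur once, and in hsp-16.2 and hsp-16.41 98.6% and 99.1%. The part of duplication in these missing regions was not tested. Of the 72 chaperone genes outside the 10, 11 had the 3-unit element in the promoter, and 2 of these 11 (18.2%), Y22D7AL.10 and bag-1, had an IDR region. The 9 without one were hsp-70, hsp-110, ahsa-1, hip-1, dnj-12 and the 4 hsp-16 genes. Over all protein-coding genes, the 10 included, 20 of the 393 with the 3-unit element in the promoter (5.09%) had an IDR region, against 2.4% of all genes.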

How the data were processed

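ChIP-seq peak lists of 2 biological replicates of 1 group were used in assembly ce11 (WBcel235). Per the deposited file lists, the authors called candidate regions in each replicate and in the pooled reads against a control library, which was not analysed here, and made the IDR list from them. Each deposited region has a signal value of the caller, a −log10 q-value in the deposited lists, converted here to q, and a summit. Aligner, caller, versions, IDR threshold and read depth were not given in the sources used here, so no value carries a counting error, and with 1 group no p-value was computed. The lists held 18286 pooled, 575 IDR, 18116 replicate 1 and 25275 replicate 2 regions, of which 996, 575, 1097 and 986 had q under 0.05.

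Genes are those of Ensembl release 115. A region went to every gene with the summit in the gene or up to 1000 bp upstream. The replicate region at a pooled region was the strongest holding its summit. Motifs and word counts used the RefSeq genome of WBcel235, and alignments used blastn 2.17.0. Other steps used Python 3.11.15, numpy 2.4.6, pandas 2.3.3 and matplotlib 3.10.9. Of these, only the assignment of summits to genes and the search for GAANNTTC were tested on simulated data. The genes and lists were chosen with earlier results of these data known. Named are the 10 genes, the other cct genes, listed genes with an IDR region, genes sharing or nearest to a summit, and the 3 most like F44E5.4 in replicate ranks; other list genes were named after their values were seen. The symbols dnj-6, hsp-16.11 and hsp-16.49 were not matched. Lists in ce10 were not used.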

Additional observations from a re-analysis of the deposited data

How the results depend on the processing

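Of 26 alternatives, 19 left the value within a tolerance and 7 moved it beyond, while reversal of a result was not assessed. The tolerance was 1.5 times for a count and the spread between replicates for a ratio. For the shares of heat shock element pairs and of single-copy words it was a binomial confidence interval. Such an interval around a share below 100% never reaches 100%, so a rise to 100% counted as moved whatever its size. Overlapping words are also not independent, as that interval assumes. Within the tolerance, the genes with a pooled region, 9 of 10, were 8 with only the nearest 5′ end and 7 with q under 0.05. They were 6 with q under 0.01 and 10 with 2000 bp upstream, where cct-4 gained one. With only the gene of the nearest 5′ end, the genes with an IDR region fell from 6 to 3 and the cct genes with one from 1 to 0. The signal of the F44E5.4 and F44E5.5 region over the median of the other genes' strongest regions, 1.86 in the pooled list, ranged from 1.79 without replicate 1 to 2.37 without replicate 2, and was 4.86 when the region nearest to each 5′ end was used. The share of regions with a heat shock element pair rose from 80.0% in 100 bp to 100% in 200 bp. The share of single-copy words in the F44E5.4 and F44E5.5 region rose from 96.6% to 100% with words of 50 or 75 bases, lengths chosen after seeing the data. The cause of these moves was not tested, except that longer windows and words hold the shorter ones. No paired analysis was possible because there is 1 group. Read depth is unknown, so a missing region is not shown to be unbound.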
